A study of Mus musculus with 3 samples.

Results

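Leukocytes leave the blood through a sequence of adhesion steps, and 7 genes of that sequence, of the 31053 genes in the matrix, were examined here by their symbols. Itga4 and Itgb1 encode the subunits of VLA-4, and Itgal and Itgb2 encode the subunits of LFA-1. Icam1 and Vcam1 encode the endothelial immunoglobulin-type ligands of LFA-1 and VLA-4, and Selp encodes P-selectin, which captures rolling leukocytes. The single-cell RNA sequencing data came from mouse brain, with 1 library each from control, Ischemic Stroke (IS) and Hemorrhagic Stroke (HS) animals of the strain given as C56BL6 at 10 weeks of age. Ischemia was modelled by a suture in the middle cerebral artery with later reperfusion and hemorrhage by collagenase IV in the striatum, and each library pooled the tissue of several mice.

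The matrix counted unique molecular identifiers (UMIs), each standing for 1 captured RNA molecule of a gene under a cell barcode. A suffix of 1, 2 or 3 on the barcode separated the libraries, with 72498768, 105957232 and 69270514 UMIs in 10140, 15190 and 10638 barcodes. No label or file header tied a suffix to a condition, and none was inferred from the values, so no difference between control, IS and HS was computed. With 1 library per condition no test was possible, and a difference between libraries is given as a description. Levels are given as CPM, the UMIs of a gene scaled to the summed UMIs of its cell class, with exact 95% Poisson intervals, and shares of cells have exact 95% Clopper-Pearson intervals. Both kinds of interval cover counting error only.

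Of the 35968 barcodes, 31982 held at least 1000 UMIs and at most 30% mitochondrial counts, and their median was 6147 UMIs. A cell was classed when at least 3 UMIs came from at least 2 markers of a type, and no other type's list held over 0.5 times as many. The classes are called "-like" because they rest on these marker genes. This gave 28659 cells in 17 classes, of which 14 held at least 50 cells. The platelet and megakaryocyte list took no cell, so the other known source of P-selectin could not be examined. None of the 7 genes was used in a list. Leading genes followed the names, such as Cd3g and Cd3d in T-cell-like cells, Retnlg and S100a9 in neutrophil-like cells and Cldn5 and Flt1 in endothelial-like cells. The libraries differed in their cells, since 1197 of the 1219 endothelial-like and 150 of the 153 pericyte-like cells carried suffix 3, whereas 27 of the 2678 T-cell-like cells did. Vascular values are thus in the main those of 1 library and lymphocyte values those of the other two, and cell class and library cannot be told apart in comparisons between them. The libraries shared 110 barcode sequences.

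In brain vessels, leukocytes roll on selectins, are activated by chemokines and then arrest through integrins that bind endothelial ligands, mostly in postcapillary venules. An integrin is a pair of an alpha and a beta subunit, and Itgb1 and Itgb2 each pair with several alpha subunits. Endothelial cells raise Icam1, Vcam1 and Selp upon inflammatory signals, in part through the transcription factor NF-kB. Levels below refer to RNA and not to protein at the cell surface.

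In the GENCODE annotation of GRCm38, the build named mm10 in the submitters' processing notes, all of the genes are protein-coding. Itga4 (ENSMUSG00000027009) lies at chr2:79255426-79333123, Itgb1 (ENSMUSG00000025809) at chr8:128685654-128733200, Itgal (ENSMUSG00000030830) at chr7:127296260-127335138 and Itgb2 (ENSMUSG00000000290) at chr10:77530252-77565708, all on the plus strand. Icam1 (ENSMUSG00000037405) lies at chr9:21015985-21028817 and Selp (ENSMUSG00000026580) at chr1:164115264-164150026 on the plus strand, and Vcam1 (ENSMUSG00000027962) lies at chr3:116109949-116129688 on the minus strand.

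Promoter sequences of 4 of the 7 genes were at hand from RefSeq (GRCm38.p6), and those of Icam1 and Selp are shown because these ligands were higher in venous-like than in capillary-like endothelial cells, as described below. Each is the 250 bases before the RefSeq start of the gene, 5′ to 3′ on the plus strand, from chr9:21015690-21015939 for Icam1 and from chr1:164115014-164115263 for Selp. Capitals mark GGAAATTCC, an NF-kB type motif, in Icam1 and a match to TGANTCA in Selp. TGANTCA is a widened AP-1 type pattern that allows any base (N) at its centre, and the Selp match was TGATTCA.
Icam1: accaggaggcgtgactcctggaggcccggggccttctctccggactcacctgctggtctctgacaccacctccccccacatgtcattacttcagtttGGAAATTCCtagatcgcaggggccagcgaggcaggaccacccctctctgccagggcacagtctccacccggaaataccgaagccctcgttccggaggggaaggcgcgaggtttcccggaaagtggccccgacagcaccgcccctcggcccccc
Selp: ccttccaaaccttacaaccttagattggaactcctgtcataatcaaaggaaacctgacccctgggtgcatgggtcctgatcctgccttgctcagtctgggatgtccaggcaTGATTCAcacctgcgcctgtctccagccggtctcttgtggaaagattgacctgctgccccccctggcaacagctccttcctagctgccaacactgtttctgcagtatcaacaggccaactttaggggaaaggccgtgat
Both strands were searched. GGAAATTCC began 153 bases before the Icam1 start and occurred in 0.286% of 32851 mouse promoter windows of the same length. TGANTCA began 139 bases before the Selp start and occurred in 6.75% of these windows. The general NF-kB consensus occurred in 7.25% of the windows and in none of the 4 promoters searched, those of Icam1, Selp, Itga4 and Itgb1. A match describes the letters in the window and not binding of a factor.

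Itga4, the alpha subunit of VLA-4, was highest in lymphocyte-like classes. T-cell-like cells held 155 CPM (95% interval 149 to 161, n = 2678 cells) and NK-cell-like cells 110 CPM (95.5 to 125, n = 316 cells), with intervals that did not overlap. In T-cell-like cells the libraries of suffix 1, 2 and 3 held 139, 168 and 120 CPM of Itga4, the last from 27 cells. In the pooled data monocyte/dendritic-like cells had 58.3 CPM of Itga4 (44.5 to 75.0) and neutrophil-like cells 52.5 CPM (39.9 to 67.9). These pooled neighbours did not differ beyond counting error. Monocyte/dendritic-like cells of suffix 1 and 2 held 37.6 CPM (20.6 to 63.1) and 33.7 CPM (17.9 to 57.6). The 17 cells of suffix 3 held 122 CPM (83.7 to 171), above both. Border macrophage-like cells had 36.2 CPM and microglia-like cells 6.33 CPM. In microglia-like cells the libraries of suffix 1, 2 and 3 held 6.16, 7.63 and 1.78 CPM of Itga4. The share of cells with an Itga4 UMI was 47.1% in the T-cell-like class (median 4760.5 UMIs). It was 2.83% in oligodendrocyte-like cells (median 6230 UMIs), a class that should lack the gene. With each cell thinned to 1000 UMIs, the shares were 13.6% and 0.494%.

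Itga4 was not confined to leukocyte-like classes. Pericyte-like cells, the mural cells of capillaries, held 83.7 CPM of Itga4 (63.2 to 109, n = 153 cells), with a UMI in 29.4% of cells (22.3 to 37.3%). This interval overlapped those of neutrophil-like, monocyte/dendritic-like and NK-cell-like cells and lay above that of endothelial-like cells at 7.08 CPM (5.65 to 8.77). Smooth-muscle-like cells had 29.6 CPM (18.6 to 44.9, n = 99 cells). In the 45 pericyte-like cells with an Itga4 UMI, the neutrophil list was at 0 CPM, and 2 of the 6 T-cell markers gave 14.4 CPM in sum. In the 108 pericyte-like cells without one, 1 T-cell marker gave 2.17 CPM. Both T-cell values rested on few UMIs, and no cell of either group held 2 of the T-cell markers. Pericyte-like cells had no Itgal UMI. The endothelial list summed to 2404 CPM in the pericyte-like cells with Itga4 and 1664 CPM in those without it, and its part in the Itga4 level was not tested.

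Itgb1, the beta subunit shared by VLA-4 and the receptors for extracellular matrix, was found in every class of at least 50 cells, and its order differed from that of Itga4. It was highest in smooth-muscle-like cells, with 715 CPM (656 to 779), followed by NK-cell-like cells with 411 CPM (384 to 441) and pericyte-like cells with 344 CPM (301 to 391). Intervals of NK-cell-like and pericyte-like cells overlapped, whereas the smooth-muscle-like level stood apart at 952 CPM in the library of suffix 2 and 641 CPM in that of suffix 3. Endothelial-like cells had 251 CPM of Itgb1 (242 to 260) and T-cell-like cells 187 CPM (180 to 194). Neutrophil-like and choroid plexus-like cells were lowest, with 39.8 and 38.8 CPM. No class could serve as a background for this gene.

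Itgal, the alpha subunit of LFA-1, was nearly restricted to blood-borne leukocyte classes. NK-cell-like cells had 142 CPM (126 to 160), neutrophil-like cells 131 CPM (111 to 154) and T-cell-like cells 93.4 CPM (88.6 to 98.4). In the pooled data the NK-cell-like and neutrophil-like levels overlapped, and the T-cell-like level lay below both. Within suffix 1, T-cell-like cells had 98.4 CPM (90.9 to 106), below neutrophil-like cells at 141 CPM (116 to 170). Within suffix 2 these intervals overlapped, at 88.8 CPM (82.5 to 95.4) and 72.7 CPM (36.3 to 130). In suffix 3 they also overlapped, at 144 CPM (85.4 to 228) and 138 CPM (89.4 to 204). The pooled level of monocyte/dendritic-like cells was 41.8 CPM. Border macrophage-like and microglia-like cells, the resident macrophages, had 3.15 and 2.52 CPM, and oligodendrocyte-like cells had 1.22 CPM. In microglia-like cells Itgal was at 2.82, 3.02 and 0 CPM for suffixes 1, 2 and 3. In endothelial-like cells 3 Itgal UMIs were counted among 1219 cells, and in pericyte-like, smooth-muscle-like, astrocyte-like and choroid plexus-like cells none. For pericyte-like cells, 0 of 153 allows a share of up to 1.96% of cells with a UMI, and for smooth-muscle-like cells 0 of 99 allows 3.03%.

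Itgb2, the beta subunit of LFA-1 and of the complement receptor integrins, was also high in microglia-like cells. Neutrophil-like cells held 230 CPM (203 to 260) and monocyte/dendritic-like cells 175 CPM (150 to 202), which lay just apart. Microglia-like cells had 135 CPM (132 to 137), T-cell-like cells 89.2 CPM and NK-cell-like cells 77.1 CPM. Because microglia-like cells were numerous, they carried 73.6% of all Itgb2 UMIs in the cells kept, against 9.39% of the Itgal UMIs. Outside the leukocyte classes Itgb2 ranged from 2.92 CPM in choroid plexus-like to 10.5 CPM in pericyte-like cells. In the neutrophil-like class, the 25 cells of suffix 3 held 343 CPM of Itgb2 (263 to 439), and the cells of suffixes 1 and 2 held 209 and 205 CPM.

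**Figure D1:**
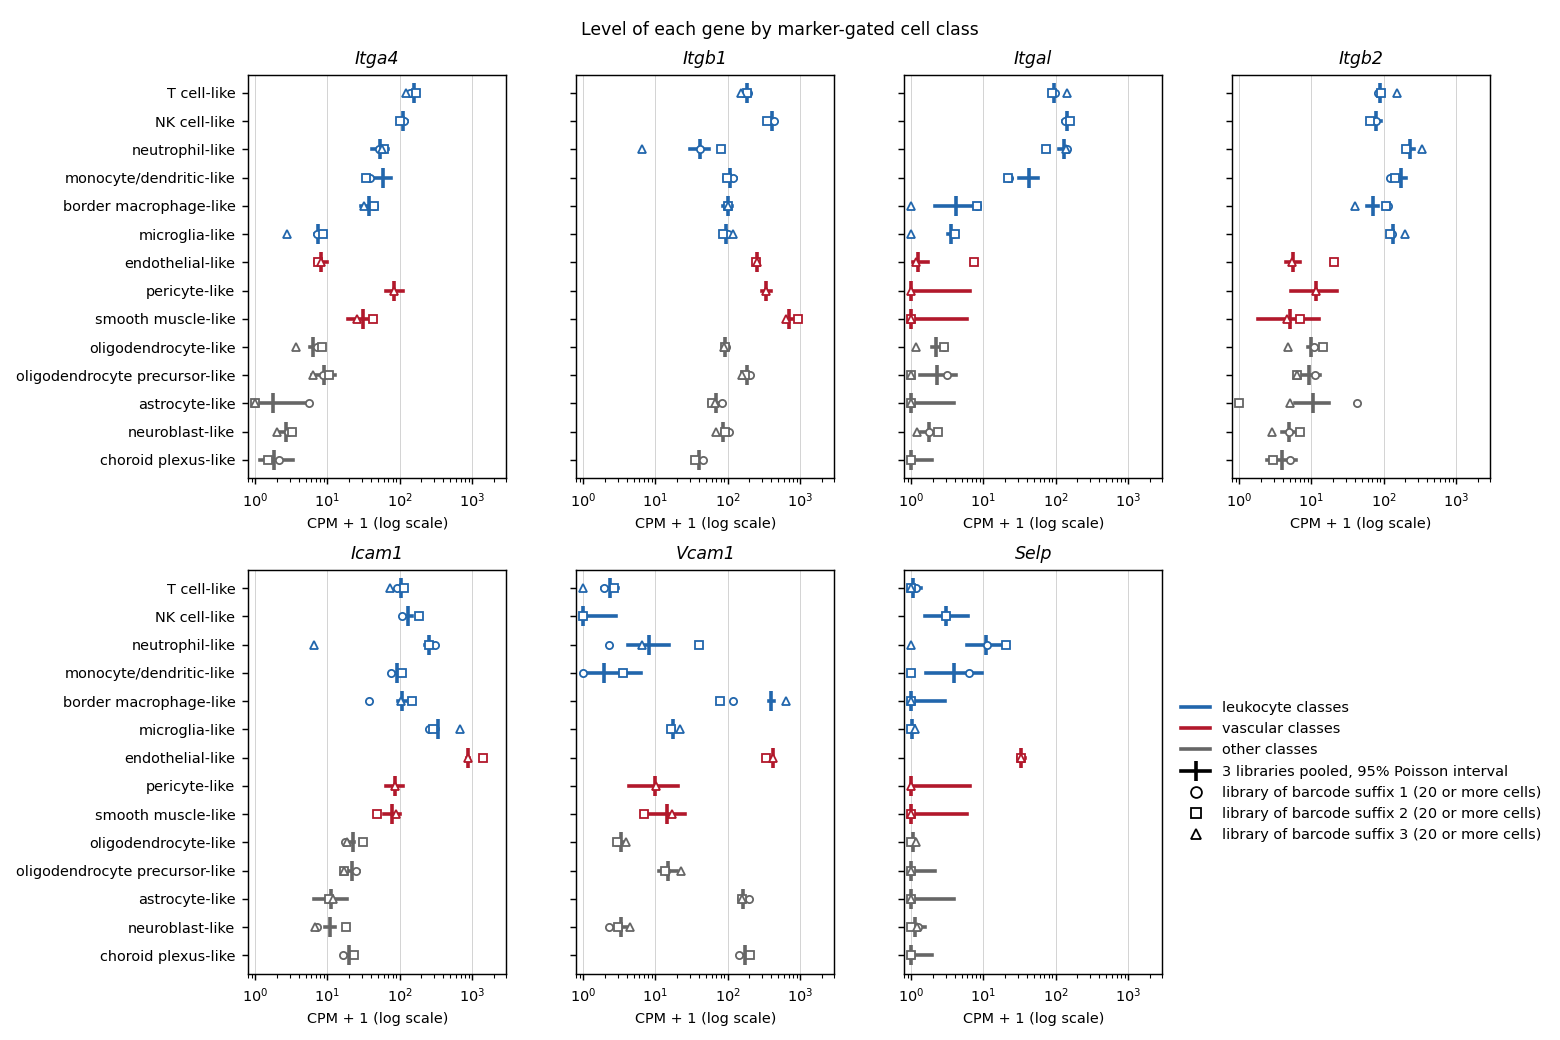
Level of each of the 7 genes in the 14 classes of at least 50 cells, as CPM + 1 on a log axis. Vertical ticks give the 3 libraries pooled with 95% Poisson intervals, and open symbols give libraries with at least 20 cells of the class. Itga4 reached 83.7 CPM in pericyte-like cells, Itgal was at 0 CPM in both mural classes, and Icam1 and Selp were highest in endothelial-like cells.

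Within T-cell-like cells, 1500 held Cd8 and 244 held Cd4 UMIs only. Suffix 2 was carried by 69.4% of the Cd8 and 49.2% of the Cd4 cells, and the part of library in their comparison was not tested. Itga4 was at 173 CPM (164.5 to 182) in the Cd8 cells and 144 CPM (126 to 164.2) in the Cd4 cells. These intervals lay just apart. Itgb1 was higher in the Cd8 cells, with 208 CPM (199 to 218) against 150 CPM (132 to 171). Itgal was at 95.5 and 99.4 CPM and Itgb2 at 93.6 and 92.2 CPM, so the LFA-1 subunits did not differ beyond counting error. Icam1 was at 110 CPM (103 to 117) in the Cd8 cells and 62.8 CPM (50.9 to 76.7) in the Cd4 cells.

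A working integrin needs both of its subunits, so their UMIs were also counted in the same cell. Both VLA-4 subunits were found in 37.3% of NK-cell-like cells (32.0 to 42.9%), 26.7% of T-cell-like cells (25.1 to 28.5%) and 25.0% of monocyte/dendritic-like cells (16.4 to 35.4%). Only 3.66% of neutrophil-like cells held both (1.77 to 6.63%). For LFA-1, both subunits were found in 23.4% of neutrophil-like cells (18.5 to 28.9%) and 21.2% of NK-cell-like cells (16.8 to 26.1%), whose intervals overlapped. The pooled share in the T-cell-like class was 15.5% (14.1 to 16.9%), below that of neutrophil-like cells. Within each library these 2 intervals overlapped. T-cell-like and neutrophil-like shares were 18.7% (16.4 to 21.3%) and 21.5% (16.0 to 27.8%) for suffix 1. They were 13.4% (11.8 to 15.1%) and 12.5% (4.73 to 25.2%) for suffix 2. For suffix 3 they were 22.2% (8.62 to 42.3%, 27 cells) and 60.0% (38.7 to 78.9%, 25 cells). In each of these classes the share with both subunits lay above the product of the single shares, for example 26.7% against 23.7% for VLA-4 and 15.5% against 12.9% for LFA-1 in T-cell-like cells. Cells with more UMIs are more likely to hold any gene. Median depths were 3099 UMIs in neutrophil-like, 4760.5 in T-cell-like, 5742.5 in NK-cell-like and 9896 in monocyte/dendritic-like cells. Neutrophil-like cells of suffix 1, 2 and 3 had medians of 3092, 2494.5 and 6150 UMIs. The part of depth in this excess, and in the differences of these shares between classes and libraries, was not tested. In microglia-like cells 3.16% held both VLA-4 subunits and 1.73% both LFA-1 subunits. For suffixes 1, 2 and 3 the VLA-4 shares were 3.30%, 4.04% and 0.605%. The LFA-1 shares were 1.91%, 2.27% and 0%, the last among 1983 cells. The T-cell list summed to 8.24, 9.99 and 0.296 CPM in the same cells, and its part in these shares was not tested.

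**Figure D2:**
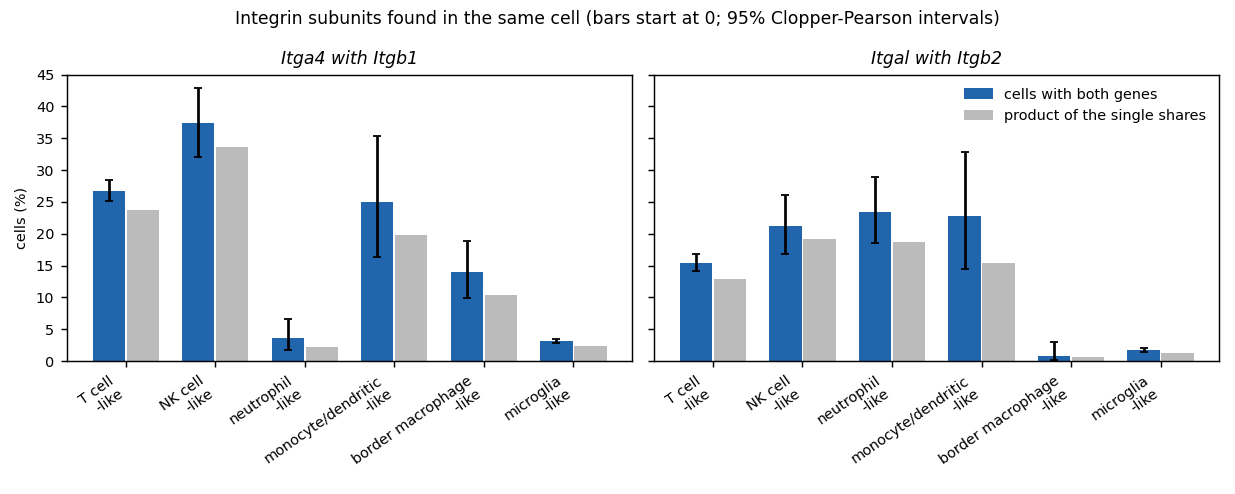
Share of cells in 6 leukocyte-like classes that held UMIs of both integrin subunits, with 95% Clopper-Pearson intervals, beside the product of the single shares. In the pooled data the VLA-4 pair reached 26.7% in the T-cell-like class against 3.66% in the neutrophil-like class. The LFA-1 pair reached 15.5% against 23.4%, with intervals that overlapped within each library.

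Icam1, the ligand of LFA-1, had its highest pooled level in endothelial-like cells, with 883 CPM (867 to 900) and a UMI in 54.3% of cells (51.5 to 57.1%). The background in oligodendrocyte-like cells was 21.6 CPM, with a UMI in 7.05% at nearly the same median depth (6230 against 6287 UMIs). Pericyte-like and smooth-muscle-like cells had 85.2 and 78.1 CPM. Leukocyte-like classes also held Icam1, from 91.3 CPM in monocyte/dendritic-like to 335 CPM in microglia-like cells (331 to 338). The share of cells with a UMI was higher in microglia-like than in endothelial-like cells, at 76.9% (76.1 to 77.8%). After thinning it was 28.0% in microglia-like and 26.3% in endothelial-like cells. Microglia-like cells carried 62.0% of all Icam1 UMIs in the cells kept, and endothelial-like cells 20.8%. Within suffix 3, endothelial-like cells held 877 CPM (860 to 894) and microglia-like cells 673 CPM (659 to 687). In microglia-like cells, Icam1 was at 253, 292 and 673 CPM in the libraries of suffix 1, 2 and 3, and the intervals did not overlap. The microglia list used for the gate summed to 2036, 1845 and 4782 CPM in the same cells, and the endothelial list to 11.9, 18.6 and 70.2 CPM, whose part in the Icam1 difference was not tested. In neutrophil-like cells the order was the opposite, with 310 CPM (272 to 351) for suffix 1, 251 CPM (178 to 345) for suffix 2 and 5.53 CPM (0.140 to 30.8) for suffix 3, where 1 UMI was seen in 25 cells.

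Vcam1, the ligand of VLA-4, was as high in border macrophage-like as in endothelial-like cells in the pooled data. Endothelial-like cells held 418 CPM (406 to 429) and border macrophage-like cells 403 CPM (375 to 432). The shares of cells differed in the other direction, with a Vcam1 UMI in 23.1% of endothelial-like and 42.2% of border macrophage-like cells. The border macrophage-like level rested on 1 library, with 643 CPM for suffix 3 (163 cells) against 116 CPM for suffix 1 (30 cells) and 77.9 CPM for suffix 2 (51 cells). Within suffix 3, border macrophage-like cells were higher, at 643 CPM (596 to 693) against 419 CPM (407 to 431) in endothelial-like cells. The shares of cells there were 52.8% and 23.4%. In the border macrophage-like cells the endothelial list summed to 175 CPM for suffix 3 and to 36.2 and 27.2 CPM for suffixes 1 and 2. The border macrophage list used for the gate summed to 5142 CPM for suffix 3 and to 2004 and 1550 CPM for suffixes 1 and 2. The part of either list in the difference between libraries was not tested.

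Vcam1 was also found in glial and epithelial classes. Choroid plexus-like cells had 174 CPM (161 to 188), with a UMI in 69.2% of cells, and astrocyte-like cells had 163 CPM (141 to 186), with a UMI in 44.4%. These levels did not differ beyond counting error, and in astrocyte-like cells the libraries of suffix 1, 2 and 3 gave similar values of 194, 155 and 157 CPM. Mural classes held little Vcam1, with 8.97 CPM in pericyte-like and 13.5 CPM in smooth-muscle-like cells. T-cell-like cells had 1.33 CPM, with an interval that overlapped that of oligodendrocyte-like cells at 2.33 CPM, and NK-cell-like cells had no UMI in 316 cells, which allows a share of up to 0.949%.

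Selp was rare. Among all cells kept, 423 UMIs were counted in 67 cells, and 388 of them (91.7%) lay in 34 endothelial-like cells. Endothelial-like cells held 32.7 CPM (29.5 to 36.1), with a UMI in 2.79% of cells (1.94 to 3.88%), against 0.0494% of oligodendrocyte-like cells. The cells of suffix 3 gave 32.7 CPM (29.5 to 36.2). The 20 cells of suffix 2 gave 32.5 CPM (10.6 to 75.9), which came from 5 UMIs in 1 cell. No Selp UMI was seen in pericyte-like or smooth-muscle-like cells. The pooled endothelial-like level was 15.4 times the level that 3 counts over both mural classes would give, a ratio without an interval. Neutrophil-like cells had 11 UMIs, or 9.96 CPM (4.97 to 17.8), and every other class of at least 50 cells was under 3 CPM.

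Leukocyte-like and vascular-like compartments were compared by the mean CPM of their 6 and 3 classes, with 10 CPM added before the ratio. Itgal (69.0 against 0.0843 CPM) and Itgb2 (129 against 6.38 CPM) were over 4-fold higher in the leukocyte-like compartment, and 4.33% of the 9301 genes measured passed this rule. None of the 7 genes was 4-fold higher in the vascular-like compartment, against 7.16% of all genes. Each class counted equally in these means. The vascular-like mean of Icam1 joined 883 CPM in endothelial-like cells with 85.2 and 78.1 CPM in the mural classes. For Vcam1, border macrophage-like cells held 403 CPM and the other leukocyte-like classes at most 16.3 CPM. The VLA-4 subunits did not reach the 4-fold limit and lay on opposite sides, with log2 ratios of 0.67 (0.41 to 0.92) for Itga4 and -1.42 (-1.52 to -1.32) for Itgb1. The ligands leaned to the vascular side, with 349 against 170 CPM of Icam1 and log2 ratios of -0.94 for Vcam1 and -0.74 for Selp, where the median of all genes was -0.45. This lean was lost for Vcam1 and Selp within the mean ± 2 SD limits of UMIs and genes, as a mean over cells and after thinning, where their log2 ratios lay above 0 and reached 0.34 and 0.05. Under the same alternatives the Icam1 ratio was -0.32, -0.32 and -0.36, nearer to 0 than the -0.45 of all genes in the pooled counts.

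Within the vascular classes, all 3 ligands were over 2-fold higher in endothelial-like than in mural cells, a rule that 7.94% of 9056 genes passed. The log2 ratios were 3.28 (3.05 to 3.52) for Icam1, 4.33 (3.96 to 4.71) for Vcam1 and 2.09 for Selp. In the other direction, with 9.54% of all genes, Itga4 and Itgb1 were higher in mural cells, at 56.7 against 7.08 CPM and 529 against 251 CPM. Many vascular cells also passed a second marker list (41.3% of endothelial-like, 53.6% of pericyte-like and 65.7% of smooth-muscle-like cells). With cells that passed 1 list only, the Icam1 ratio rose to 4.64 and the Vcam1 ratio to 5.08 on the log2 scale. The Selp ratio fell below the 2-fold limit in 2 alternatives, to 0.79 without cells outside the mean ± 2 SD of UMIs or genes and to 0.93 as a mean over cells.

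Endothelial-like cells were divided by vein, capillary and artery markers into 171 venous-like, 984 capillary-like and 35 arterial-like cells, with 29 left without a subtype. The vein markers were Slc38a5, Nr2f2, Vwf, Lrg1 and Ackr1. Leading genes of the venous-like cells included Lcn2, Ptgs2, Cxcl1 and Vcam1 itself beside these markers. What the vein markers follow other than vessel type was not tested. All 3 ligands were highest in venous-like cells. Icam1 reached 1923 CPM (1876 to 1971) in venous-like, 486 CPM (471 to 502) in capillary-like and 291 CPM (242 to 348) in arterial-like cells. Vcam1 was at 1184 CPM (1147 to 1222) in venous-like, 445 CPM (384 to 514) in arterial-like and 95.2 CPM (88.6 to 102) in capillary-like cells. Thus capillary-like cells exceeded arterial-like cells in CPM of Icam1 and fell below them in Vcam1, and no intervals overlapped. The Icam1 difference was 1.65-fold with 10 CPM added, under the 2-fold limit. Shares of cells with an Icam1 UMI were 48.7% in capillary-like and 48.6% (31.4 to 66.0%) in arterial-like cells. Selp was at 118 CPM (107 to 131) in venous-like cells, where 386 UMIs were counted, against 2 UMIs in the capillary-like and none in the arterial-like cells. Its ratio between venous-like and capillary-like cells was 476 with a counting interval of 131 to 3940.

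All 3 ligands passed the 2-fold limit between venous-like and capillary-like cells, which 1.66% of 8246 genes did, and 1.48% passed it in the other direction. The log2 ratios were 1.96 (1.90 to 2.02) for Icam1, 3.50 (3.40 to 3.61) for Vcam1 and 3.65 for Selp on the scale with 10 CPM added, while Itgb1 differed by 0.47. Of the venous-like cells, 169 of 171 carried suffix 3, so these values are those of 1 library. Venous-like cells were also deeper, with a median of 12976 UMIs against 5914.5. Thinned to 1000 UMIs, Icam1 was found in 67.3% of venous-like and 19.1% of capillary-like cells, Vcam1 in 48.5% and 4.07%, and Selp in 7.60% and 0%.

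Between 5000 and 15000 UMIs, 57 venous-like cells held 1754 CPM of Icam1 and 690 CPM of Vcam1, and 497 capillary-like cells held 444 and 66.3 CPM. Selp fell from 118 to 33.5 CPM (19.9 to 53.0) in venous-like cells within this range and was not found in the capillary-like ones. Few cells carried much of the ligand RNA. Among the 1219 endothelial-like cells, 5 cells held at least 50% of the Selp UMIs, 30 cells 50% of the Vcam1 UMIs and 62 cells 50% of the Icam1 UMIs. The 192 endothelial-like cells above the upper limit of 18809.5 UMIs or 4010.1 genes set by the mean and 2 SD, 15.8% of the class, held 87.6% of the Selp, 76.9% of the Vcam1 and 63.7% of the Icam1 UMIs. Of the 171 venous-like cells, 71 (41.5%) exceeded these limits, and they held 87.6% of the Selp, 82.0% of the Vcam1 and 78.9% of the Icam1 UMIs of the venous-like subtype. Within the limits the venous-like against capillary-like log2 ratios were 2.89 for Selp, 3.65 for Vcam1 and 2.05 for Icam1. Without the cells above the limits the endothelial-like levels were 7.34 CPM for Selp, 175 CPM for Vcam1 and 581 CPM for Icam1. The T-cell list was at 0 CPM in venous-like cells, and the pericyte list was at 463 CPM against 585 CPM in capillary-like cells.

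**Figure D3:**
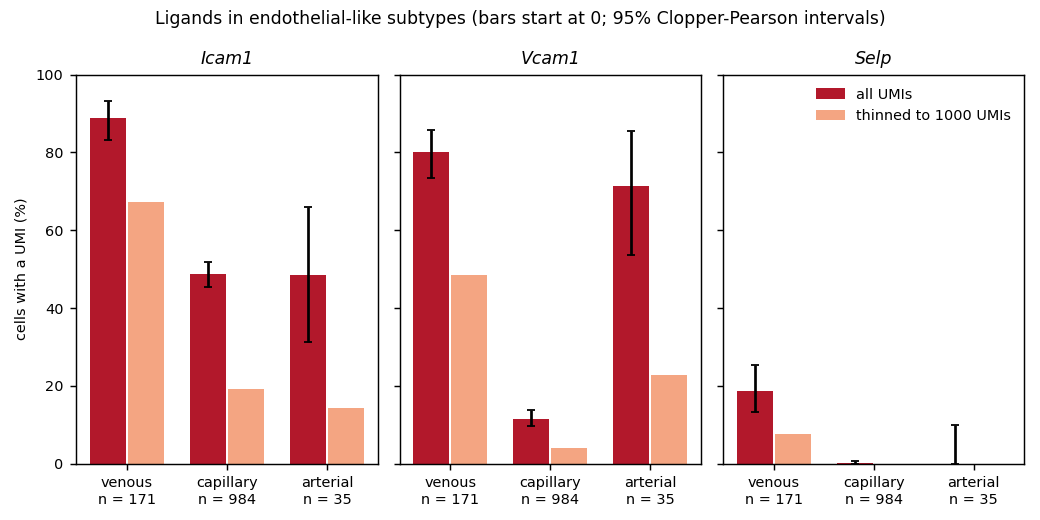
Share of venous-like, capillary-like and arterial-like endothelial cells with a UMI of Icam1, Vcam1 or Selp, from all UMIs (dark bars, 95% Clopper-Pearson intervals) and after thinning each cell to 1000 UMIs (light bars). Venous-like cells were highest for each ligand, at 88.9%, 80.1% and 18.7% from all UMIs.

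The ligands occurred in the same endothelial-like cells. All 34 cells with Selp also held Icam1 and 33 held Vcam1. Icam1 and Vcam1 were found together in 20.1% of endothelial-like cells (17.9 to 22.5%), against a product of 12.6%. Within subtypes the shares were 76.6% against a product of 71.2% in venous-like and 9.55% against 5.64% in capillary-like cells. In the venous-like subtype 31 cells held all of the ligands, 101 held 2, 26 held 1 and 13 held none. In the capillary-like subtype 2 cells held all of them, 92 held 2, 405 held 1 and 485 held none. The part of depth in these shares was not tested.

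Other genes of the adhesion cascade were taken from 5 lists, whose counts between compartments stand against 4.33% of all genes in the leukocyte-like and 7.16% in the vascular-like direction. Among 6 of 9 other integrin subunits that were measured between compartments, Itgam, Itgax and Itgb7 were 4-fold higher in the leukocyte-like compartment and none in the vascular-like one (list median log2 1.31). In the list of selectins and selectin ligands, Selplg and Cd44, which act in rolling, were higher in leukocyte-like classes, at 337 against 49.5 CPM and 242 against 3.75 CPM, and Cd34 was higher in vascular-like classes, at 180 against 25.9 CPM. Of 10 junction and adhesion molecules, 7 were higher in vascular-like classes, such as Esam at 572 against 2.83 CPM and Pecam1 at 230 against 15.1 CPM (median -2.91). Of 7 genes of integrin activation, Fermt3, which encodes kindlin-3, and Apbb1ip were higher in leukocyte-like and Fermt2, which encodes kindlin-2, and Rasgrp2 in vascular-like classes (median -0.08). Of 8 NF-kB targets and regulators, Tnfaip3, Ccl2 and Cxcl10 were higher in the mean of the leukocyte-like compartment (median 1.22). Ccl2 was at 1955, 1063 and 434 CPM in border macrophage-like, microglia-like and monocyte/dendritic-like cells. It was at 60.1, 23.3 and 66.1 CPM in T-cell-like, NK-cell-like and neutrophil-like cells. Pericyte-like, smooth-muscle-like and endothelial-like cells had 97.2, 94.3 and 9.70 CPM of Ccl2.

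Between endothelial-like and mural cells, with 7.94% and 9.54% of all genes past the limit, 1 of 4 other integrin subunits measured was 2-fold higher in endothelial-like cells (Itga6) and 2 in mural cells (Itgav and Itgb5). Sele and Cd34 were higher in endothelial-like cells among 3 selectin genes measured. Of the 10 junction molecules, 5 were higher in endothelial-like cells and 2 in mural cells, Jam3 and Mcam. Of 6 activation genes, 3 were higher in mural cells (Tln1, Rap1a and Rasgrp2). Of the 8 NF-kB genes, Nfkbia and Tnfaip3 were higher in endothelial-like and Ccl2 and Cxcl10 in mural cells. A Ccl2 UMI was in 14.4% of pericyte-like and 7.07% of smooth-muscle-like cells. For Cxcl10 these shares were 17.0% and 20.2%, against 23.9% of endothelial-like cells. Oligodendrocyte-like cells held 56.7 CPM of Ccl2 and 255 CPM of Cxcl10, and microglia-like cells 1063 and 4581 CPM. The source of the mural UMIs was not tested.

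Between venous-like and capillary-like cells, 1.66% of all genes passed the limit in the venous and 1.48% in the capillary direction. Sele, which encodes E-selectin, was at 147 CPM against 3.73 CPM, and Selplg, which encodes the P-selectin ligand PSGL-1, was higher in capillary-like cells, at 35.9 against 7.36 CPM. Oligodendrocyte-like cells held nearly as much Selplg, 31.9 CPM, and microglia-like cells 649 CPM. The microglia list summed to 100 CPM in capillary-like and 36.2 CPM in venous-like cells, and its part in the Selplg difference was not tested. None of the 10 junction and adhesion molecules passed the 2-fold limit (median log2 -0.04, the same as for all genes), which is near the background of so small a share. Of the 8 NF-kB genes, 3 were higher in venous-like cells. The inhibitor Nfkbia was at 5200 against 2030 CPM, Tnfaip3, an inhibitor of the pathway, at 313 against 84.8 CPM, and the neutrophil chemokine Cxcl1 at 1239 against 186 CPM (median 0.70). Of the other lists, Itgb5 among 3 integrin subunits and Rasgrp2 among 5 activation genes were higher in capillary-like cells. Itgb5 was at 30.1 CPM in capillary-like cells, beside 35.5 CPM in oligodendrocyte-like and 487 CPM in microglia-like cells.

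**Figure D4:**
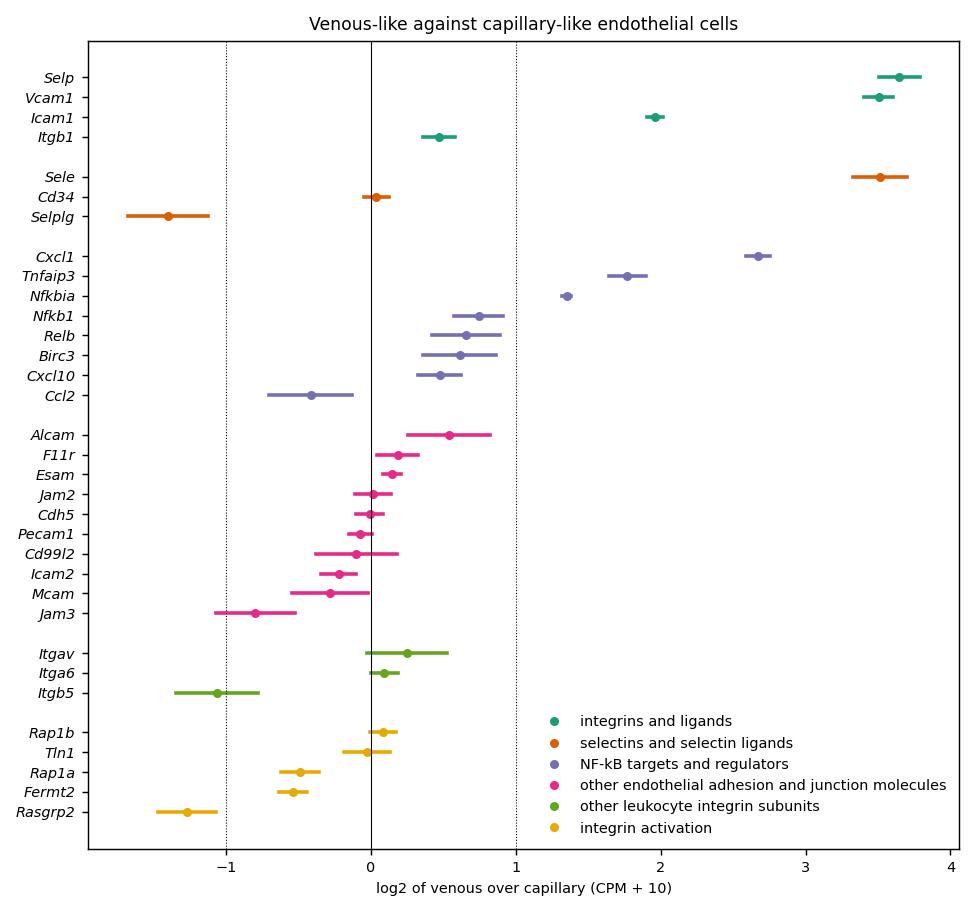
Log2 ratio of venous-like over capillary-like endothelial cells on CPM + 10 for the measured genes of each list, with 95% intervals from counting error. Dotted lines mark the 2-fold limit. Selp, Sele, Vcam1, Cxcl1, Icam1, Tnfaip3 and Nfkbia lie beyond it on the venous side, and no junction molecule does.

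The genes most like each of the 7 in log2 level across the 14 classes were sought among 7164 genes with at least 50 CPM in a class, by Pearson's r and as a description over 14 points that share libraries. Itgb2 was most like Ptpn6 (r = 0.983), Cd53 and Glipr1, and Itgal most like Ltb (r = 0.976), Traf1 and Acap1. Itga4 was most like Mndal (r = 0.885), Arhgdib and Emp3, and Itgb1 most like Kpna1 (r = 0.899), Txndc11 and Siah2. Among ligands, Icam1 was most like Fli1 (r = 0.941), Lgals9 and Tgfbr2, Vcam1 most like Gas6 (r = 0.859), Dab2 and Sult1a1, and Selp most like Fosl1 (r = 0.939), Col4a3bp and Ceacam1. Selp was at 32.7 CPM in endothelial-like, 9.96 CPM in neutrophil-like and at most 2.91 CPM in the other classes. Its r thus rested mainly on the endothelial-like class.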

How the data were processed

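Brain tissue was dissociated and sequenced with 10x Chromium 3′ chemistry. The authors deposited 1 matrix of UMI counts per gene and barcode for the 3 libraries, made with Cell Ranger 3.1.0 and STAR with down-sampling across libraries, and the submitters' processing notes name mm10 and Seurat 3.1.1. The counts carry no normalization per cell. The upper limits on UMIs and genes in the methods were an alternative only, and no doublet caller was run. The marker rule left out cells in which another list held over 0.5 times as many UMIs, and cells with fewer UMIs of a second list were kept.

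Counts were summed by class and scaled to CPM. Ratios used 10 CPM as pseudocount, with genes of at least 10 CPM in either group counted as measured. Values of libraries are shown for at least 20 cells, except for Itga4 in the 17 monocyte/dendritic-like cells of suffix 3. A share of 0 is given with the limit that 3 counts allow, and thinning used 1000 UMIs. The genes named are the 7 genes, those of 5 adhesion lists and the 3 most like each of the 7. Part of the result of the selectin list is not reported here. These genes and lists were chosen with earlier results of these data known. The steps were checked on simulated data. Python 3.11.15, NumPy 2.4.6, pandas 2.3.3, SciPy 1.17.1 and Matplotlib 3.10.9 were used.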

Additional observations from a re-analysis of the deposited data

Results flagged for a closer look

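Cells without a class and removed barcodes lay outside the classes compared, and all 7 genes had UMIs there above what a count of 0 allows. In the 3323 cells kept that had no class, a UMI was found for Itga4 in 12.3% of cells, Itgb1 in 36.8%, Itgal in 6.26%, Itgb2 in 26.3%, Icam1 in 38.9%, Vcam1 in 5.93% and Selp in 0.211%. Of these cells 1217 passed at least 2 marker lists and 2047 passed none. In the 3986 barcodes removed for low UMIs or high mitochondrial counts (median 840 UMIs), the shares were 3.61% for Itga4, 9.71% for Itgb1, 1.23% for Itgal, 3.59% for Itgb2, 8.45% for Icam1, 1.48% for Vcam1 and 0.100% for Selp. The source of these UMIs was not tested.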

How the results depend on the processing

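Fold ratios under the alternatives were computed for the 7 genes between compartments and for the 3 ligands within the vessel classes. The mural calls of Itga4 and Itgb1 and the calls from the adhesion lists were not recomputed. Among the ratios that could be computed, no difference past a fold limit changed direction. The numbers of genes past the limits stayed as reported, with 1 exception. Within the mean ± 2 SD limits and as a mean over cells, 2 and not 3 ligands passed the endothelial-like over mural limit. The cause of each shift below was not tested. In T-cell-like cells, Itga4 was 166 CPM as a mean over cells, and Itgb1 was 195 CPM within the mean ± 2 SD limits and 198 CPM after thinning. In endothelial-like cells, Icam1, Vcam1 and Selp were 581, 175 and 7.34 CPM within these limits, 931, 449 and 36.8 CPM with other lists at most 0.2 times, 593, 204 and 9.04 CPM as a mean over cells, and 559, 196 and 12.3 CPM after thinning. With cells passing 1 marker list only, an alternative chosen after seeing the data, they were 805, 329 and 28.3 CPM. Another 2 alternatives chosen after seeing the data, cells of 5000 to 15000 UMIs and a venous list without Lrg1, kept the venous ratios at log2 1.96 and 1.84 for Icam1, 3.20 and 3.30 for Vcam1 and 2.12 and 3.75 for Selp. Leaving out each library in turn gave 139 to 167 CPM for Itga4, 183 to 192 CPM for Itgb1, 89.6 to 99.3 CPM for Itgal and 85.3 to 93.1 CPM for Itgb2 in T-cell-like cells, and 876 to 1370 CPM for Icam1, 322 to 419 CPM for Vcam1 and 31.0 to 32.7 CPM for Selp in endothelial-like cells. Without suffix 3, 22 endothelial-like, 3 pericyte-like and 2 venous-like cells remained, and no ratio within the vessel classes could be computed. The endothelial-like Selp level of 31.0 CPM without suffix 3 rested on 5 UMIs in 1 cell of suffix 2. Over all alternatives, the leukocyte-like against vascular-like log2 ratio, which passed no limit, ran from -1.07 to 0.34 for Vcam1 and from -1.77 to 0.05 for Selp, above 0 within the mean ± 2 SD limits, as a mean over cells and after thinning. No paired analysis was possible because the labels carry no replicate numbers and each condition has 1 library. Selp rested on 423 UMIs in 67 cells, and 5 cells held at least 50% of those in endothelial-like cells.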
